A study of Mus musculus with 37 samples.

Results

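The genes described here serve the unfolded protein response and protein folding in the endoplasmic reticulum (ER). They were taken by symbol from a list of 39 genes, and all 39 were found among the 52636 genes of the deposited tables. All 39 also passed the filter on low counts that left 18426 genes for testing. The libraries were made from mature luminal cells, the epithelial class of the mammary gland that senses ovarian hormones, which were isolated by FACS. The mice had been raised to 8 weeks of age, their ovaries were removed, and the glands were taken 8 days after a pellet was implanted. Placebo, estradiol (E2), progesterone (P4) or E2 together with P4 (E2+P4) was given to mice whose Esr1, the gene of estrogen receptor alpha, was wild type (WT) or held the mutation D542G or Y541S. These 12 groups had 3 libraries each, apart from WT P4 with 4, and total counts ran from 25.69 to 52.24 M. Every group was therefore without ovarian hormones other than those of the pellet, and the labels used here do not give the dose of the mutant allele or the number of animals behind a library. The p-values thus measure the spread between these libraries.

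Proteins bound for secretion or for membranes enter the ER through the Sec61 channel, are folded there by chaperones and disulfide isomerases, and are sent to the proteasome by ER-associated degradation if folding fails. When unfolded proteins build up, the membrane sensors encoded by Ern1 (IRE1), Eif2ak3 (PERK) and Atf6 raise the capacity of this machinery, by splicing of Xbp1 mRNA, by translation of Atf4 mRNA and by cleavage of ATF6 protein. Luminal cells that prepare for milk secretion enlarge their ER, and Xbp1 is known as a gene that estrogen receptor alpha can induce. Counts per gene show neither splicing nor protein, so the activity of the sensors was not seen here.

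The response reaches its target genes through short promoter elements. The ER stress response element (ERSE, letters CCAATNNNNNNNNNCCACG), its shorter relative ERSE-II (ATTGGNCCACG), the UPRE core (TGACGTGG) and the CARE element read by ATF4 (TGATGNAA) were searched on both strands. The windows ran from 250 bases before to 50 bases after the RefSeq gene start (GRCm38.p6). A window was at hand for 32 of the 39 genes, and no matches overlapped in them. ERSE was found in 9 of the 32, namely Hspa5, Hsp90b1, Dnajc3, Creld2, Calr, Canx, Pdia6, Syvn1 and Derl3, and in 37 of 27025 genes with a window (0.137%). ERSE-II was found for Dnajb11 and Herpud1 and in 0.0444% of all genes, the UPRE core for Sec24d and in 0.714%, and CARE for Herpud1 and Trib3 and in 4.51%. A match describes letters and is no evidence of binding. The stretches below are examples that hold these elements, and not every gene with a match is shown. Those of Hspa5 and Sec24d lie before the RefSeq start but meet an annotated exon, since the GENCODE gene starts upstream (34771970 and 123267455). They run 5′ to 3′ on the gene's strand, and capitals mark the element.
Hspa5, ERSE, chr2:34772020-34772048, plus strand: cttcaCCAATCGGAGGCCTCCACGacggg
Hsp90b1, ERSE in both orientations, chr10:86705510-86705686, minus strand: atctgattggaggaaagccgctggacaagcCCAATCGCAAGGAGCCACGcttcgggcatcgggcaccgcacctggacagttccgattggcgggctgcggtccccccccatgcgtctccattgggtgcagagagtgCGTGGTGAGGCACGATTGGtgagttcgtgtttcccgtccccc
Canx, ERSE, chr11:50325770-50325848, minus strand: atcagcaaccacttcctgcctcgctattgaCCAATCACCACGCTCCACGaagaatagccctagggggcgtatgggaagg
Pdia6, ERSE, chr12:17266461-17266539, plus strand: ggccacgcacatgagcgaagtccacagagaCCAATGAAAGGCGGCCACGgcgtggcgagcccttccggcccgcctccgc
Syvn1, ERSE, chr19:6046502-6046575, plus strand: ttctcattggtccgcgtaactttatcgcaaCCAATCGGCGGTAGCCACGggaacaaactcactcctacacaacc
Dnajc3, ERSE, chr14:118937797-118937875, plus strand: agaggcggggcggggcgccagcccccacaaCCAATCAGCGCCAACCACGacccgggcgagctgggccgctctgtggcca
Herpud1, ERSE-II with a CARE element upstream in reverse, chr8:94386287-94386417, plus strand: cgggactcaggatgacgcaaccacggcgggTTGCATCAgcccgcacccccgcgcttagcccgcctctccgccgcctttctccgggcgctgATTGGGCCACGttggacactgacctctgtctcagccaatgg
Sec24d, UPRE core, chr3:123267460-123267487, plus strand: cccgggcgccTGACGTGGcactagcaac

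Levels are CPM, each library's counts scaled to a common total, and differences are log2 fold changes ± SE from edgeR's quasi-likelihood test over all 37 libraries. Calls were made where the p adjusted by Benjamini-Hochberg across the whole set of tested genes was under 0.05. In ovariectomized WT mice on placebo, the order of the levels per kb of merged exons began with the disulfide isomerase gene Pdia3 (366 CPM per kb), Hspa5 (276), which encodes the master chaperone BiP, the lectin chaperone gene Calr (214) and Xbp1 (179). It ended with the sensor gene Ern1 (3.8 CPM per kb) and Derl3 (0.523), and the order is approximate because the sources do not state which positions of a gene were counted. The 39 genes together summed to 8687 to 9564 CPM in WT placebo, 11034 to 13148 in WT E2, 10514 to 10797 in WT P4 and 15460 to 22557 in WT E2+P4. The lowest WT E2+P4 library lay above the highest library of every other WT group. WT E2+P4 held the highest group mean for 19 of the 39 genes and WT placebo the lowest for 16. No share over all tested genes stands beside these counts, and they are not read as a trait of these genes.

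**Figure D1:**
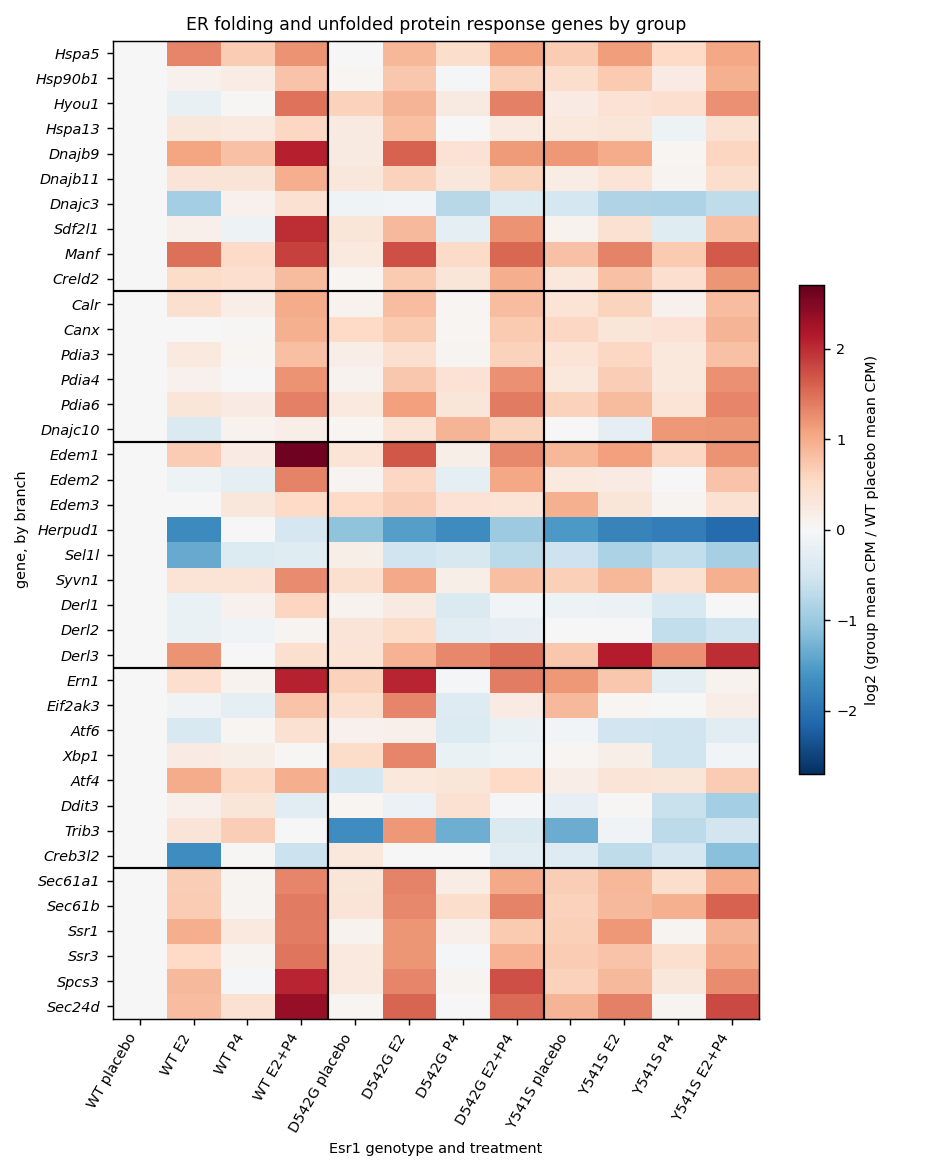
Each row is a gene, ordered by branch, and each column a group; colour gives the log2 ratio of the group's mean CPM to that of WT placebo. The 2 darkest red cells are Edem1 and Sec24d in WT E2+P4, followed by the little expressed Derl3 in Y541S E2 (mean 4.55 CPM against 1.04), and the blue cells are mostly in the Herpud1, Sel1l, Dnajc3, Creb3l2 and Trib3 rows.

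The libraries differed in cells and in state, and these values stand beside the results that follow. The 11 markers of hormone-sensing luminal cells summed to 8443 to 20171 CPM. Their sums overlapped between WT placebo (12852 to 17967) and WT E2+P4 (10751 to 19383). In that comparison 2 of them were higher and 6 lower (background 11.8% higher and 11.5% lower), Foxa1 (-2.56 ± 0.45) and Cited1 (-1.97 ± 0.48) among the latter. The 10 markers of B and plasma cells, which also carry a large ER, summed to at most 16.2 CPM in any library, and Igkc and Ms4a1 were listed at 0 in all. Markers of luminal progenitor and alveolar cells summed to 3760 to 4434 CPM in WT placebo, 9152 to 32919 in WT E2 and 6632 to 9800 in WT E2+P4. Leukocyte markers summed to 8.84 to 11.8 CPM, 75.5 to 215 and 31.7 to 156 in the same order, and immediate early genes to 20473 to 22906, 6054 to 7626 and 5518 to 10233. Basal and cell cycle markers stood apart in WT placebo 2 and WT P4 2 (912 and 821 CPM for the basal list, against at most 85.9 in the other libraries of both groups). Fibroblast markers summed to 4040 and 4097 CPM in Y541S placebo 2 and 3 and to at most 920 in every other library. The part of these cells and states in the results was not tested, and in bulk RNA a change in the mix of cells and a change within cells cannot be told apart.

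WT E2+P4 against WT placebo asked what both hormones did together in cells with the intact receptor. Of the 39 genes 26 rose and 0 fell (background 11.8% of all tested genes higher and 11.5% lower), with a median log2 fold change of 0.97 against 0.01 over all tested genes. The rise took in 9 of 10 chaperone genes, 5 of 6 lectin chaperone and isomerase genes, 4 of 9 degradation genes, 2 of 8 sensor and transcription factor genes, and all 6 genes of translocation, signal peptide cleavage and export. The median was 1.43 in the last of these branches, 1.09 for chaperones, 0.98 for lectin chaperones and isomerases, 0.54 for degradation and 0.22 for sensors and factors. All 26 calls but those of Atf4 and Hspa13 were kept when any library of these groups was left out and under each other setting tried.

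**Figure D2:**
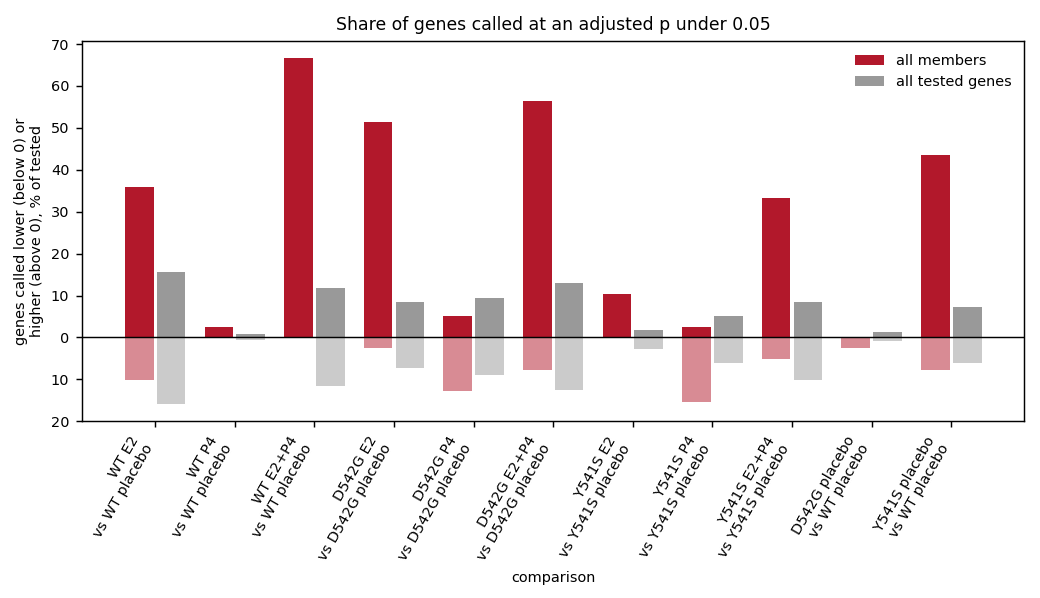
Bars show the percentage of the 39 genes (red) and of all tested genes (grey) called higher (above 0) or lower (below 0) in each comparison at an adjusted p under 0.05. The tallest red bar is WT E2+P4 with 26 of 39 genes, and WT P4 has 1.

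Among chaperones, Manf (ENSMUSG00000032575, chr9:106838312-106891979 on GRCm38), which encodes a secreted ER stress protein, was at 80.7, 78.1 and 81.3 CPM in placebo. It was at 191, 234 and 247 in E2, at 126, 130, 108 and 95.8 in P4 and at 238, 281 and 349 in E2+P4. Placebo lay below every hormone library, and the rise in E2+P4 was 1.85 ± 0.16 (adjusted p = 1.89e-09). Of the span of Manf 92.3% is shared with other genes, but only 15.9% of its exons lie inside other gene spans and 9.25% overlap other exons. Reads of Dcaf1 and others could be split with Manf. Sdf2l1 (ENSMUSG00000022769, chr16:17130138-17132383), whose product works with BiP and its cochaperones, was at 68.7, 58.4 and 77.2 CPM in placebo, 71.4, 87.4 and 64.4 in E2 and 56.6, 68.1, 70.2 and 54.2 in P4. In E2+P4 it was at 226, 252 and 342. The 3 other groups overlapped, and the combined treatment stood clear of them (4.02-fold over placebo, 2.01 ± 0.25 log2, adjusted p = 5.57e-07). Dnajb9, a BiP cochaperone gene and classical IRE1 target, rose by 2.10 ± 0.30, Hyou1, which encodes a BiP nucleotide exchange factor, by 1.48 ± 0.35 and Hspa5 by 1.21 ± 0.18. The Hsp90 paralog gene Hsp90b1 rose by 0.77 ± 0.17, with 60.8% of its exons inside the span of other genes. Dnajb11, Creld2 and Hspa13 rose by 0.97, 0.84 and 0.56. Dnajc3, which encodes the PERK inhibitor p58IPK, was not called (0.40 ± 0.16, adjusted p = 0.0631).

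Calreticulin and calnexin hold glycoproteins until they are folded, and the isomerases form their disulfide bonds. Pdia6 was at 595, 517 and 578 CPM in placebo, 816, 658 and 650 in E2, 667, 608, 724 and 640 in P4 and 1264, 1232 and 1839 in E2+P4 (1.36 ± 0.17, adjusted p = 6.75e-07). Calr was at 631, 531 and 689 CPM in placebo, 830, 858 and 797 in E2, 691, 683, 759 and 674 in P4 and 1139, 1063 and 1492 in E2+P4 (2-fold over placebo, SE 0.13 on the log2 scale, adjusted p = 1.08e-06). For both genes the E2+P4 libraries lay above all the other WT libraries. Pdia4 (1.22), Canx (0.96) and Pdia3 (0.81) also rose, and the ER reductase gene Dnajc10 was not called (0.17 ± 0.21, adjusted p = 0.594).

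Degradation was divided. Edem1 (ENSMUSG00000030104, chr6:108828641-108859356), whose product extracts misfolded glycoproteins from the folding cycle, was at 96.8, 85.5 and 98.3 CPM in placebo, 137, 137 and 177 in E2 and 125, 124, 77.5 and 110 in P4. In E2+P4 it was at 420, 547 and 771, a 6.19-fold rise over placebo with no overlap. Its relative Edem2 was at 197, 137 and 173 CPM in placebo, 165, 137 and 156 in E2, 138, 152, 140 and 131 in P4 and 361, 380 and 535 in E2+P4 (1.33 ± 0.19, adjusted p = 5.11e-06). The ubiquitin ligase gene Syvn1 (1.27) and the channel gene Derl1 (0.58) rose too. Sel1l, which encodes the adaptor of the SYVN1 ligase, did not follow its partner (-0.32 ± 0.20, adjusted p = 0.255), and Herpud1 (-0.45), Edem3 (0.54), Derl2 (0.08) and Derl3 (0.44) were not called either.

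The sensor Ern1 (ENSMUSG00000020715, chr11:106394650-106487852) was at 44.5, 21.6 and 27.1 CPM in placebo, 37.9, 33.4 and 56.2 in E2, 26.6, 27.9, 36.3 and 42.3 in P4 and 93.9, 117 and 185 in E2+P4. Only the combined treatment stood above the other WT libraries (4.25-fold over placebo, 2.09 ± 0.26 log2, adjusted p = 6.97e-07). Xbp1 (ENSMUSG00000020484, chr11:5520659-5525893), the transcription factor gene whose mRNA IRE1 splices, was at 628, 586 and 532 CPM in placebo and 482, 606 and 688 in E2+P4. These libraries overlapped, and the difference was 0.02 ± 0.20 with a 95% interval of -0.37 to 0.42. In WT E2 it was at 436, 763 and 831 CPM and in WT P4 at 641, 725, 655 and 584, also without a call.

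Atf4, the transcription factor gene of the integrated stress response, was at 128, 230 and 139 CPM in placebo, 343, 357 and 297 in E2, 194, 186, 313 and 252 in P4 and 293, 355 and 331 in E2+P4. It rose in E2+P4 by 0.98 ± 0.27 (adjusted p = 0.0088), and the call was lost without WT placebo 1 and without WT placebo 3 (0.00108 to 0.0621 over the 12 alternatives). Its target gene Ddit3 (CHOP), which is tied to cell death under lasting stress, was at 8.98, 12.5 and 11.2 CPM in placebo, 7.34, 16.7 and 12 in E2, 13.1, 12, 17 and 12.5 in P4 and 6.53, 11.9 and 8.48 in E2+P4. Placebo overlapped each hormone group, while every P4 library (12 CPM or more) lay above every E2+P4 library (at most 11.9). The ATF4 target gene Trib3 was not called in E2+P4 either (-0.01 ± 0.31). Eif2ak3 was at 44.7, 39.7 and 36.9 CPM in placebo, 46.9, 10.9 and 56.6 in E2, 40.4, 31.2, 26.8 and 36.4 in P4 and 51.9, 78.9 and 74.7 in E2+P4 (0.76 ± 0.33, adjusted p = 0.0942). Atf6 was at 119, 90 and 121 CPM in placebo, 87.3, 47.1 and 114 in E2, 119, 131, 83.4 and 122 in P4 and 116, 156 and 169 in E2+P4 (0.42 ± 0.21, adjusted p = 0.156). Neither sensor gene was called, although no E2+P4 library of Eif2ak3 lay below a placebo library. Creb3l2, which encodes an ER-bound factor that is released by cleavage as ATF6 is, was not called (-0.57 ± 0.30).

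All 6 genes of the entry and exit machinery rose. Spcs3 (ENSMUSG00000054408, chr8:54520433-54529998), which encodes a subunit of the signal peptidase, was at 109, 122 and 103 CPM in placebo, 181, 246 and 188 in E2, 115, 108, 98 and 111 in P4 and 476, 324 and 592 in E2+P4. Placebo and P4 overlapped, E2 lay above both and E2+P4 above E2 (4.17-fold over placebo, adjusted p = 2.94e-10). Ssr3, a subunit gene of the translocon-associated complex, was at 324, 245 and 275 CPM in placebo, 362, 416 and 442 in E2, 291, 297, 276 and 328 in P4 and 647, 707 and 954 in E2+P4 (1.45 ± 0.15, adjusted p = 4.28e-08). It kept the same order of groups. Sec24d, which encodes a cargo adaptor of the COPII coat that carries proteins out of the ER, rose by 2.36 ± 0.26, and the channel genes Sec61b and Sec61a1 and the translocon gene Ssr1 by 1.40, 1.32 and 1.39.

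**Figure D3:**
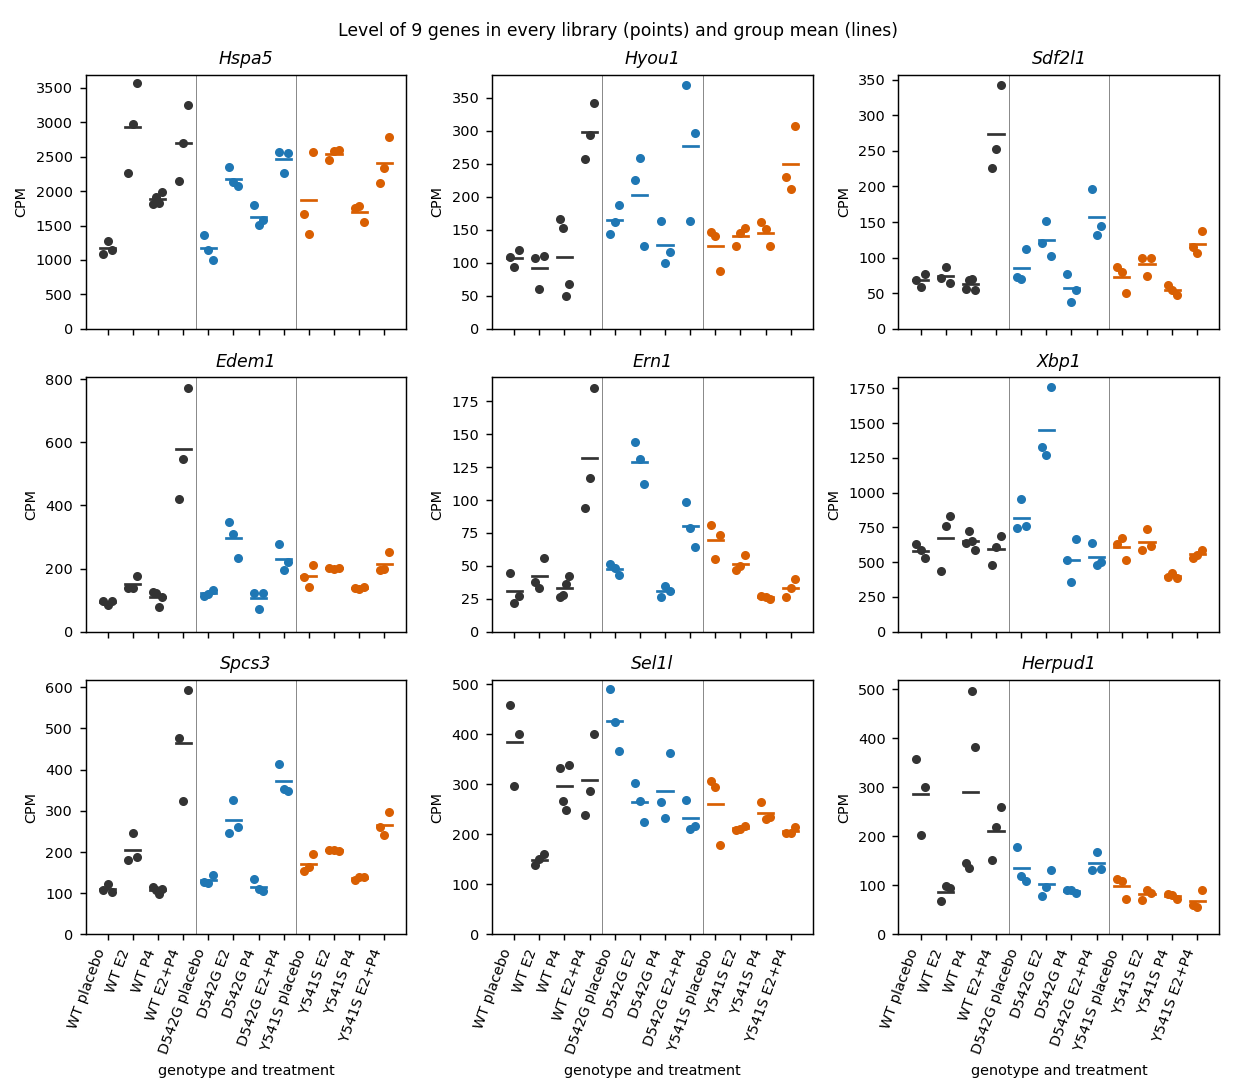
Points are single libraries of 9 genes in CPM (linear axes from 0) by genotype and treatment, and lines are group means. For Sdf2l1, Edem1 and Spcs3 the WT E2+P4 points lie above all other WT points, while Xbp1 is highest in D542G E2 and Sel1l is lowest in WT E2.

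Of the 9 genes with an ERSE 7 rose in WT E2+P4, near the share of 26 of all 39, and Dnajc3 and Derl3 were not called. Sec24d, with the UPRE core, rose, and Dnajb11, with an ERSE-II, did too. Herpud1 with ERSE-II and CARE and Trib3 with CARE were not called. Among pathway genes outside the 39, to be read against the same background of 11.8% higher and 11.5% lower, a list of 26 translocon, signal peptidase and oligosaccharyltransferase genes had 19 higher and 0 lower, led by Sec11a (1.38 ± 0.11), Ostc (1.29 ± 0.11) and Ssr2 (1.46 ± 0.13). Of 20 other folding enzymes 13 were higher and 1, Uggt2 (-1.89 ± 0.51), lower. The prolyl isomerase genes Fkbp11 (3.57 ± 0.25) and Ppib (0.93 ± 0.11) rose, and Ero1a, the gene of the oxidase that recharges the isomerases, rose by 1.75 ± 0.17. Of 22 ER to Golgi transport genes 13 were higher and 0 lower, among them the retrieval receptor gene Kdelr3 (3.71 ± 0.36), Mcfd2 (1.59 ± 0.12) and Surf4 (1.40 ± 0.15). Other degradation genes had 6 higher and 0 lower of 17 tested, with Selenos (1.68 ± 0.17), Os9 (1.38 ± 0.14) and Ube2g2 (1.17 ± 0.12) first by p.

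Of 20 further genes of the integrated stress response 1, Nupr1 (1.16 ± 0.38), was higher and 3 were lower, namely Atf3 (-1.71 ± 0.33), the cystine transporter gene Slc7a11 (-2.81 ± 0.72) and Gpt2 (-0.64 ± 0.24). Atf3 is also an immediate early gene, and that list was lower in E2+P4, with 6 of 10 called lower and 0 higher. The counts of the integrated stress response list and of the following list lie near the background of 11.8% higher and 11.5% lower, or below it. Other sensors, proteases and stress factors had 3 higher, Atf6b (0.89 ± 0.17), Creb3 and Tnfrsf10b, and 2 lower, Eif2ak1 (-1.23 ± 0.18) and Bcl2l11, of 16 tested. Cytosolic heat shock genes went both ways, with 5 higher, such as Hspb1 (1.57 ± 0.28), and 3 lower, such as Hspa1a (-2.17 ± 0.36) and Hspa1b (-1.40 ± 0.27), of 15.

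WT E2 against WT placebo asked what estrogen did alone. It raised 14 and lowered 4 of the 39 genes (background 15.6% higher and 15.9% lower), with a median of 0.30 against 0.03 over all tested genes. All 6 genes of translocation and export rose, led by Ssr1 (0.99 ± 0.15) and Spcs3 (0.88 ± 0.16), and 5 of 10 chaperone genes. Hspa5 (ENSMUSG00000026864, chr2:34771970-34777547) went from 1089, 1269 and 1146 CPM to 2258, 2981 and 3565, a rise of 1.33 ± 0.18 (adjusted p = 2.25e-06) with no overlap. Manf rose by 1.48 ± 0.16, to levels that overlapped those in E2+P4. In the other branches Calr rose by 0.42, Edem1 by 0.68 and Atf4 2-fold.

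The 4 genes that fell in WT E2 were Sel1l and Herpud1 of the degradation branch, the cochaperone gene Dnajc3 and the factor gene Creb3l2, a share below the background. Sel1l was at 458, 296 and 401 CPM in placebo, 138, 150 and 161 in E2, 333, 266, 249 and 338 in P4 and 238, 286 and 400 in E2+P4. Every E2 library lay below every other WT library, and the fall was -1.36 ± 0.20 (adjusted p = 7.64e-06). Dnajc3 went from 468, 379 and 471 CPM to 220, 195 and 277 in E2 and stood at 397, 594 and 748 in E2+P4. Its fall under E2 (-0.93 ± 0.16, adjusted p = 4.4e-05) was not seen when P4 was given with it. Creb3l2 fell by 1.68 on the log2 scale, from 139, 85 and 126 CPM to 41.1, 13.4 and 54.9.

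Herpud1, an ER membrane protein gene that recruits the degradation machinery, fell by 1.73, from 357, 203 and 301 CPM to 68.4, 97.8 and 93.8. Under P4 it was at 146 and 136 CPM in WT P4 2 and 3 and at 496 and 381 in WT P4 4 and 5. Those last libraries belong to a later series of sample identifiers, and their immediate early genes summed to 24454 and 23327 CPM, against 13131 and 11205 in WT P4 2 and 3. Hyou1 split in the opposite direction (166 and 152 CPM against 50.4 and 68.4). Not called in WT E2 were Derl3 (1.21 ± 0.61, at 0.862 to 3.05 CPM over both groups), Ern1 (0.45 ± 0.25, adjusted p = 0.174), Atf6 (-0.41 ± 0.21) and Xbp1 (0.22 ± 0.20). Without WT placebo 2 and WT P4 2 together, 8 genes were higher and 4 lower, against 2803 higher and 2723 lower of all 19058 tested genes. In a fit of the groups compared alone it was 7 and 4, against 1450 and 1689 of 15083.

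WT P4 against WT placebo called 1 gene higher and 0 lower (background 0.923% higher and 0.505% lower). The gene was Hspa5, at 1811, 1918, 1826 and 1980 CPM under P4, above all 3 placebo libraries (0.69 ± 0.17, adjusted p = 0.0328). The call was lost in 8 of 14 alternatives, with adjusted p from 0.0051 to 0.239, among them without any library of WT placebo and without WT P4 3, 4 or 5. Manf (0.52 ± 0.15, adjusted p = 0.0717), Dnajb9 (0.80 ± 0.28) and Trib3 (0.67 ± 0.29) were the next in size or p, without a call. WT P4 joins both identifier series, and several genes split between them. Dnajb9 was at 14.8 and 9.65 CPM in WT P4 2 and 3 and at 21.2 and 24.9 in WT P4 4 and 5. Canx (680 and 573 against 442 and 499), Pdia4 (439 and 433 against 343 and 332) and Sec61a1 (481 and 424 against 330 and 358) split the other way. The part of the series was not tested. Over the 39 genes 7 had an unadjusted p under 0.05 by edgeR. That count stands without a share over all tested genes and is not read as a response. DESeq2 called 3 of the 39 higher and 0 lower, against 429 higher and 317 lower of all 18426 tested genes.

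The combined treatment was next set against each hormone alone and against their sum. Against WT E2, 25 genes were higher and 0 lower (background 10.2% higher and 8.28% lower), with Edem1 (1.95 ± 0.22), Dnajc3 (1.33 ± 0.16), Edem2 (1.48 ± 0.19), Sdf2l1 (1.88 ± 0.24), Spcs3 and Ern1 (1.64 ± 0.26) first by p. Sel1l, Herpud1 and Creb3l2, which E2 lowered, were among those higher (1.04, 1.28 and 1.11). Hspa5 was not (-0.12 ± 0.18). A fit of these 2 groups alone called 13 of the 39, all higher, against 653 higher and 239 lower of all 15234 tested genes. Against WT P4, 25 were higher and 0 lower (background 12% higher and 11.1% lower), led by Spcs3 (2.10 ± 0.15), Edem1 (2.41 ± 0.20) and Ssr3 (1.37 ± 0.14). Trib3 (-0.68 ± 0.29) and Ddit3 (-0.61 ± 0.35) lay lower without a call.

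If the log2 effects of both hormones simply added, the change under E2+P4 would equal the sum of the single changes, and the interaction term of the fit measures the departure. For 15 of the 39 genes the combined change was above the sum and for 1 below (background 6.39% above and 5% below), with a median departure of 0.59 against -0.06 over all tested genes. Edem2 departed by 1.75 ± 0.25 (adjusted p = 3.63e-05), Sdf2l1 by 2.01 ± 0.33 and Edem1 by 1.72 ± 0.29. Spcs3 and Dnajc3 departed by 1.22 each, Sel1l by 1.42 and Ern1 by 1.54 ± 0.34. The gene below its sum was Hspa5 (-0.81 ± 0.24, adjusted p = 0.0275), which lost the call in 7 of 20 alternatives (0.0082 to 0.0979). Its level under E2+P4 (2145, 2706 and 3253 CPM) overlapped that under E2 alone. Herpud1 (1.26 ± 0.46), Eif2ak3 (1.11 ± 0.45) and Creb3l2 (1.06 ± 0.41) departed without a call. Without WT E2+P4 3, the library with the highest summed level of the 39 genes, 9 genes were above and 1 below. Over all 19112 tested genes it was 716 and 513. Without the later identifier series, which holds WT P4 4 and 5, 11 genes were above and 1 below, against 1104 and 753 of 19100.

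**Figure D4:**
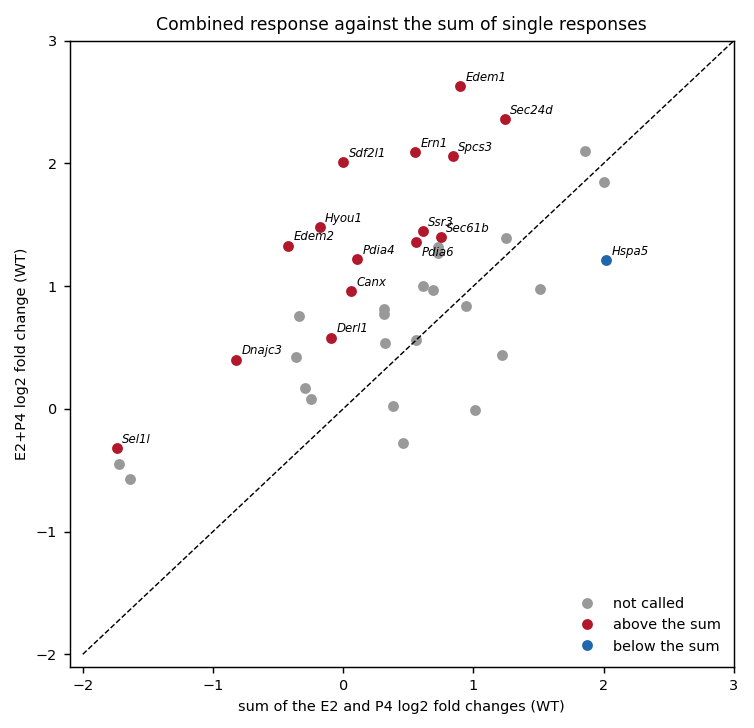
Each point is 1 of the 39 genes, with the sum of its E2 and P4 log2 fold changes in WT cells on the x axis and its E2+P4 log2 fold change on the y axis; the dashed line marks equality. The 15 red points were called above the sum and the blue point, Hspa5, below it by the interaction term; all 3 changes share the WT placebo libraries.

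Under placebo, 1 of the 39 genes was called lower in D542G than in WT cells and 0 higher (background 1.24% higher and 0.782% lower), a share near the background, with a median of 0.24 against -0.03 over all tested genes. The gene was Trib3. It was at 31.1, 15.2 and 31.5 CPM in WT placebo and at 6.29, 7.97 and 10 in D542G placebo (-1.68 ± 0.32, adjusted p = 0.00296), with no overlap. Herpud1 (-1.09 ± 0.34), Hyou1 (0.62 ± 0.34) and Ern1 (0.62 ± 0.25) were not called. DESeq2 called 2 genes, against 366 higher and 299 lower of all 18426 tested genes.

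In Y541S cells under placebo 17 genes were higher and 3 lower than in WT cells (background 7.18% higher and 6.22% lower). Manf was at 150, 111 and 156 CPM (0.79 ± 0.16, adjusted p = 0.000846), Ern1 at 81, 55.3 and 73.2 (1.17 ± 0.25, adjusted p = 0.00194) and Edem1 at 174, 142 and 210 (0.91 ± 0.21). All 3 genes stood above WT placebo in every library. All 6 genes of translocation and export were higher, among them Ssr3 (0.69 ± 0.15), Ssr1 (0.65 ± 0.15) and Sec61a1 (0.67 ± 0.16). Herpud1, at 114, 108 and 72 CPM, was lower (-1.55 ± 0.35, adjusted p = 0.00263), as were Trib3 (-1.35) and Dnajc3 (-0.48). Of 14 alternatives the call was lost in 0 for Herpud1, 2 for Trib3 and 10 for Dnajc3. Sel1l (-0.57 ± 0.20, adjusted p = 0.0558), Eif2ak3 (0.88) and Derl3 (0.72) were not called. Without Y541S placebo 2 and 3, which carried the fibroblast markers, 13 genes were higher and 2 lower with the remaining library assumed to vary like the other groups. Without Y541S placebo 5 it was 11 and 2, and in a fit of these 2 groups alone 4 and 1.

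E2 in D542G cells raised 20 genes and lowered 1 (background 8.36% higher and 7.34% lower), with a median of 0.62 against 0.01 over all tested genes. Trib3 went from 6.29, 7.97 and 10 CPM to 47.9, 53.9 and 72.4, a 7.17-fold rise (2.84 ± 0.33 log2, adjusted p = 1.03e-06), to above every WT library but WT P4 4 at 56.7. Xbp1 rose in this comparison and in no other of the 9 hormone comparisons with placebo. It was at 742, 955 and 760 CPM in D542G placebo and 1330, 1268 and 1759 in D542G E2 (0.83 ± 0.20, adjusted p = 0.00471), and all 3 E2 libraries exceeded the other 34. Whether this rise differed from that in WT E2 was tested and not called (0.61 ± 0.28, adjusted p = 0.192). Ern1 rose by 1.44 ± 0.25, to 144, 131 and 112 CPM, Manf by 1.48 ± 0.16, Ssr1 by 1.09 ± 0.15 and Sec61a1 by 1.02 ± 0.16. Sel1l fell (-0.69 ± 0.20). Eif2ak3 (0.89 ± 0.33, adjusted p = 0.0644), Atf4 (0.75 ± 0.27) and Derl3 (0.56) were not called.

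In Y541S cells E2 raised 4 genes and lowered 0 (background 1.87% higher and 2.78% lower). These were Trib3 (1.25 ± 0.32, adjusted p = 0.0198), Ssr1 (0.53), Manf (0.54) and Creld2 (0.51). The count went to 0 without Y541S placebo 2, without Y541S placebo 3, without Y541S E2 1 and without Y541S E2 3, and to 1 without Y541S E2 2. Calls over all tested genes went from 344 higher and 513 lower to 141 and 236 without Y541S placebo 2. They went to 111 and 189 without Y541S placebo 3, 117 and 182 without Y541S E2 1 and 133 and 224 without Y541S E2 3. Without Y541S E2 2 they were 264 and 319. Without Y541S placebo 5 the count was 5, and the calls over all tested genes were 768 higher and 1018 lower. On the first principal component of all tested genes that library lay at 54.8, near the Y541S E2 libraries (63.6 to 73.1) and apart from Y541S placebo 2 and 3 (-14.4 and -21.3). The values of Derl3 (1.41 ± 0.60), Eif2ak3 (-0.83 ± 0.33) and Edem3 (-0.61 ± 0.23) had no call.

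The E2 responses of the mutants were compared with that of WT cells by interaction terms. In D542G 3 genes responded more positively and 0 less (background 4.52% and 4.71%), and the counts were near the background in both mutants. Trib3 differed by 2.50 ± 0.45 (adjusted p = 0.00055), Dnajc3, which fell in WT and held at 439, 424 and 390 CPM in D542G E2, by 0.97 ± 0.22, and Creb3l2 by 1.41 ± 0.42. Creb3l2 missed the threshold under 8 of 18 alternatives, and its adjusted p ran from 0.005 to 0.169 over all 18. Those that leave out a library were without WT placebo 1 or 3, WT E2 2, D542G placebo 2 or 3 and D542G E2 1 or 2. In Y541S 2 genes responded more positively, Sel1l (1.07 ± 0.28) and Creb3l2 (1.34 ± 0.42), and 2 less, Manf (-0.94 ± 0.22, adjusted p = 0.00776) and Hspa5 (-0.89 ± 0.25) (background 4.02% and 4.01%). Hspa5 under E2 was at 2452, 2586 and 2593 CPM in Y541S, within the range of WT E2, while under placebo it was at 1663, 1378 and 2570, above WT placebo. In Y541S the call was lost in 12 of 20 alternatives for Creb3l2 (0.00824 to 0.264), 8 for Hspa5 (0.000478 to 0.184), 4 for Sel1l (0.00129 to 0.106) and 1 for Manf. The first 3 of these genes lost it without WT placebo 1 and without Y541S placebo 5. Creb3l2 and Hspa5 also lost it without WT placebo 3 and without Y541S E2 1, Hspa5 without WT E2 3, and Creb3l2 without WT E2 2, Y541S placebo 3, Y541S E2 2 or Y541S E2 3. Herpud1 differed by 1.32 and 1.48 in D542G and Y541S without a call. Leaving out single libraries moved the Y541S count to between 1 and 6, with 1 left without Y541S placebo 5. That fit called 470 higher and 512 lower of all 19071 tested genes.

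P4 alone called 7 of these genes in D542G and 7 in Y541S, most of them lower. In D542G 2 genes rose and 5 fell (background 9.49% higher and 8.88% lower). In Y541S 1 rose and 6 fell (background 5.14% higher and 6.13% lower). The share higher lay below the background in both. The share lower lay near the background in D542G, a little above it, and further above it in Y541S. The counts of falls moved as libraries were left out, as given below for both mutants. Dnajc10, which encodes a reductase that opens disulfides for degradation, rose in both. It was at 200, 207 and 210 CPM in D542G placebo and 475, 305 and 357 in D542G P4 (0.88 ± 0.21, adjusted p = 0.00399), and at 223, 240 and 140 in Y541S placebo and 394, 522 and 442 in Y541S P4 (1.17 ± 0.21, adjusted p = 0.000471). The groups did not overlap in either genotype, and in WT the P4 libraries (240, 215, 175 and 225) overlapped placebo (192, 183 and 224).

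The falls in D542G P4 were in Dnajc3 (-0.64 ± 0.16), Derl2 (-0.65 ± 0.16), Derl1 (-0.47), Xbp1 (-0.67) and Sel1l (-0.57), and Atf4 rose by 0.80 ± 0.27, with its lowest P4 library and its highest placebo library both at 145 CPM. Of 11 alternatives the call was lost in 0 for Dnajc3 and Derl2, 3 for Derl1 and Xbp1, 7 for Sel1l and 5 for Atf4. Without D542G P4 2, whose immediate early genes summed to 24171 CPM against 10297 and 9573 in the other libraries of its group, 1 gene rose and 2 fell. Over all 18989 tested genes 910 then rose and 813 fell. The falls in Y541S P4 were in Ern1 (27.4, 26 and 24.8 CPM, -1.42 ± 0.25, adjusted p = 0.00048), Derl2 (-0.66 ± 0.17), Ssr1 (-0.58), Dnajb9 (-1.13), Edem3 (-0.87) and Sec24d (-0.85). Of 13 alternatives the call was lost in 0 for Ern1, 3 for Derl2, 4 for Ssr1, 5 for Dnajb9, 4 for Edem3 and 7 for Sec24d. That of Derl2 was lost without Y541S placebo 3, and its log2 fold change ran from -0.85 to -0.20 over the 13. Without Y541S P4 3 the counts of rises and falls were 1 and 2, against 564 and 608 of all 19091 tested genes. Without Y541S placebo 5 they were 1 and 3, against 960 and 1231 of 19071. Ern1 (-0.64 ± 0.25), Eif2ak3 (-0.80) and Derl3 (0.93) in D542G were not called, nor were Eif2ak3 (-0.87), Trib3 (0.63) and Xbp1 (-0.60 ± 0.20, adjusted p = 0.0502) in Y541S.

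E2+P4 raised 22 genes and lowered 3 in D542G cells (background 13.0% higher and 12.4% lower). Spcs3 rose from 128, 125 and 145 CPM to 414, 352 and 348 (1.48 ± 0.16, adjusted p = 1.31e-07), Manf by 1.29 ± 0.16, Pdia6 by 1.14 ± 0.17, Pdia4 by 1.14 ± 0.17, Sec61b by 0.98 ± 0.15 and Creld2 by 0.93 ± 0.15. The 3 that fell were Sel1l (-0.88 ± 0.20), Derl2 (-0.56) and Xbp1, at 635, 478 and 504 CPM (-0.60 ± 0.20, adjusted p = 0.0266). Derl3 (1.12), Hyou1 (0.75 ± 0.34) and Creb3l2 (-0.60) were not called. Hormone-sensing luminal markers summed to 15558 to 17524 CPM in D542G placebo, 10327 to 12474 in D542G P4 and 9277 to 10652 in D542G E2+P4, with no overlap between placebo and either hormone group. Their part in these results was not tested.

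In Y541S cells E2+P4 raised 13 and lowered 2 (background 8.43% higher and 10.1% lower). Sec61b went from 26.2, 28.3 and 21.7 CPM to 48.2, 44.8 and 56.7 (0.97 ± 0.15, adjusted p = 5.07e-05), and Dnajc10 from 223, 240 and 140 to 351, 461 and 560 (1.19 ± 0.21). Creld2, Pdia4, Manf and Pdia6 rose by 0.91, 0.95, 0.86 and 0.71. Ern1 fell (-1.07 ± 0.25, adjusted p = 0.00343), to 26.4, 33.3 and 40 CPM, and so did Derl2 (-0.53). The Derl2 call was lost in 7 of 13 alternatives, among them without Y541S placebo 2, without Y541S placebo 3 and without both. Its log2 fold change ran from -0.71 to -0.06 over the 13, while the Ern1 call was kept in all of them. Derl3 (1.28), Trib3 (0.85) and Creb3l2 (-0.78) were not called. Without Y541S placebo 3, or without Y541S E2+P4 3, 7 genes rose and 1 fell, and without Y541S placebo 2 and 3 together 7 rose and 2 fell. Immediate early genes summed to 10176 to 12060 CPM in Y541S placebo and 3549 to 4346 in Y541S E2+P4, and hormone-sensing luminal markers to 12055 to 14702 and 9596 to 11390, without overlap. Their part in the result was not tested.

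The E2+P4 response was smaller in both mutants than in WT cells for a set of these genes. In D542G 0 responded more positively and 6 less (background 1.16% and 3.14%), namely Edem1 (-1.69 ± 0.30, adjusted p = 0.00143), Ern1 (-1.33 ± 0.35), Dnajb11 (-0.69), Derl1 (-0.74), Ssr1 (-0.77) and Ssr3 (-0.77). This count ran from 1 to 10 as single libraries were left out, with 1 without WT placebo 2, without WT E2+P4 3 and without D542G E2+P4 2, and 10 without WT E2+P4 1. Over all tested genes 101 responded more positively and 311 less without WT placebo 2, and 98 and 284 without WT E2+P4 3. It was 141 and 389 without D542G E2+P4 2, and 457 and 814 without WT E2+P4 1. Edem1 kept its call in all 18 alternatives. Trib3 (1.29), Dnajb9 (-1.18) and Sdf2l1 (-1.12 ± 0.34, adjusted p = 0.0535) were not called.

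In Y541S 1 gene, Dnajc10 (1.01 ± 0.29), responded more positively and 16 less (background 3.00% and 5.68%). The Dnajc10 call was lost in 7 of 20 alternatives, among them without WT placebo 3, without Y541S placebo 5 and in a fit of the groups compared alone. The difference was -3.16 ± 0.36 for Ern1 (adjusted p = 1.26e-06), which rose in WT and fell in Y541S. It was -2.33 ± 0.30 for Edem1 and -2.69 ± 0.41 for Dnajb9. Spcs3 differed by -1.43 ± 0.22 and Ssr1 and Ssr3 by -1.11 each, and these 6 kept their calls in all 20 alternatives. Pdia6 (-0.65 ± 0.23), Trib3 (0.86) and Derl3 (0.84) were not called. The count was 10 without WT E2+P4 3, against 420 more positive and 775 less of all 19112 tested genes. It was 11 without Y541S E2+P4 2, against 383 and 851 of 19093.

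**Figure D5:**
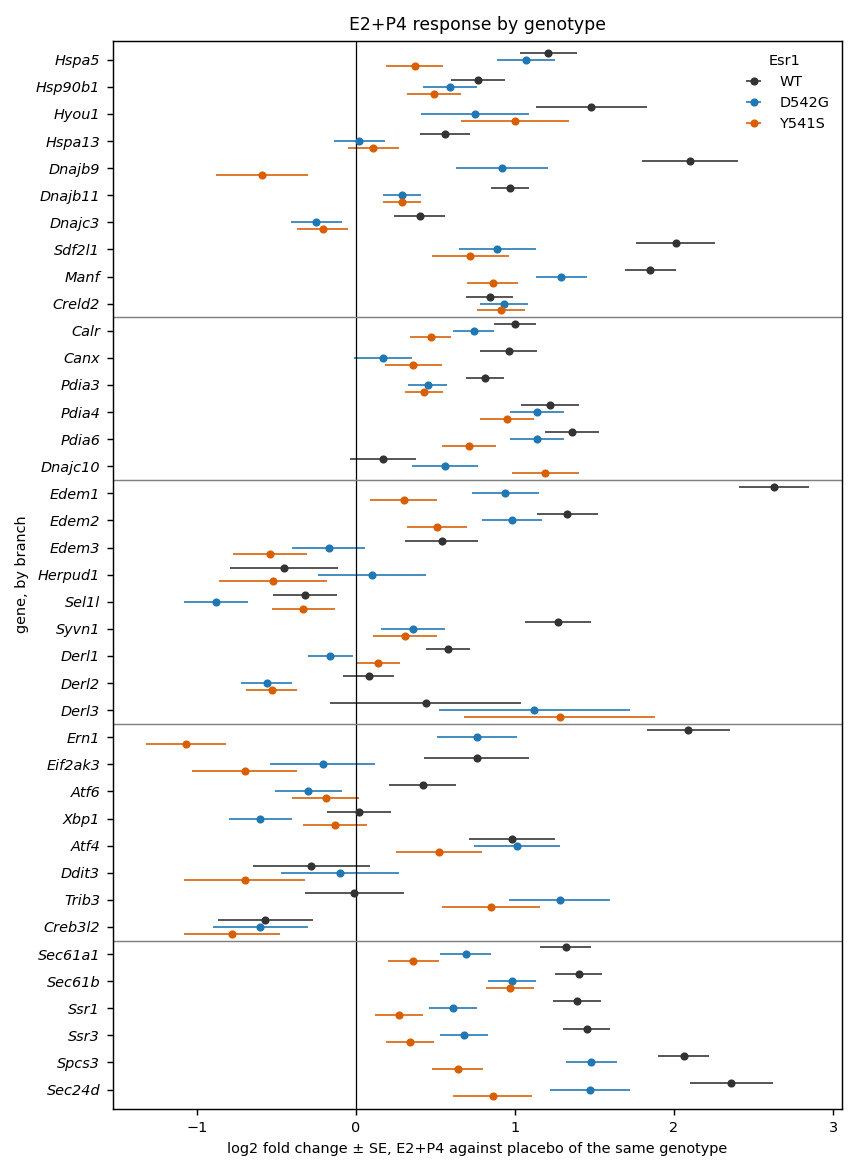
Points are the log2 fold changes of E2+P4 against placebo of the same genotype for each of the 39 genes, with SE as bars (WT black, D542G blue, Y541S orange). Ern1, Edem1 and Dnajb9 show the widest gap between WT and Y541S, and Dnajc10 is the gene with Y541S farthest above WT.

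A difference between responses holds the placebo libraries as well, so the E2+P4 groups were also compared directly. In D542G E2+P4 0 genes were higher and 8 lower than in WT E2+P4 (background 2.12% higher and 4.56% lower). Edem1, at 279, 194 and 220 CPM, was lower than in WT by 1.33 ± 0.21 (log2, adjusted p = 0.00032), and Dnajc3 (-0.77), Derl1 (-0.66), Ssr1 (-0.68), Ssr3 (-0.51) and Sdf2l1 (-0.80) came next by p. The count was 2 without WT E2+P4 3, 5 without WT E2+P4 2, 4 without D542G E2+P4 2 or 3 and 0 in a fit of these 2 groups alone. Calls over all tested genes went from 391 higher and 841 lower to 166 and 347 without WT E2+P4 3. In the fit of these 2 groups alone they were 34 and 93. Derl3 (1.04), Ern1 (-0.71 ± 0.25) and Atf6 (-0.59) were not called.

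In Y541S E2+P4 1 gene was higher, Dnajc10 (1.02 ± 0.21), and 14 were lower (background 6.03% higher and 8.50% lower). Ern1 differed by -1.99 ± 0.26 (adjusted p = 5.43e-06), Edem1, at 197, 198 and 253 CPM, by -1.42 ± 0.21 and Dnajc3 by -1.08 ± 0.16. Dnajb9, at 13.3, 15.7 and 16.4 CPM against 36.9, 47.1 and 45.9 in WT, differed by -1.52 ± 0.29, Sdf2l1 by -1.19 and Spcs3 by -0.80. None of these libraries overlapped those of WT E2+P4. Derl3 (1.55 ± 0.61), Ddit3 (-0.63) and Eif2ak3 (-0.59) were not called. Without WT E2+P4 3 the counts were 1 higher and 7 lower, against 596 and 1019 of all 19112 tested genes. Calr was at 1252, 910 and 1148 CPM in D542G, 1007, 1113 and 1198 in Y541S and 1139, 1063 and 1492 in WT E2+P4, and these libraries overlapped.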

How the data were processed

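RNA-seq of 37 libraries was deposited by the authors as 1 table per library with a raw count and an RPKM value per Ensembl gene. The deposited RPKM values, per kilobase of a width column by the authors per the file headers, entered no result, because that width is mostly the genomic span of a gene. Per the submitters' processing notes the build was GRCm38, and the aligner, the counting rule and its use of strand are not given in the sources used here. Groups were taken from the labels for genotype and treatment. Library totals ran from 25.69 to 52.24 M, with a median of 41.26 M, and 34 libraries had at least 32.67 M. The 3 libraries of a later identifier series (Y541S placebo 5, WT P4 4 and 5) had at most 31.33 M.

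Gene symbols came from the annotation, and 52403 of 52636 identifiers matched 1. Counts were filtered by group (filterByExpr), scaled by TMM (factors 0.77 to 1.17) and fitted with edgeR 4.0.16 (R 4.3.3) by its quasi-likelihood test over all 12 groups, with 25 residual degrees of freedom. All 18426 genes entered the Benjamini-Hochberg adjustment in each of 20 comparisons. CPM used the scaled library size. The scripts were tested on simulated data. DESeq2 1.42.0, other scaling, filters and subsets of libraries were alternatives, and leaving out Y541S placebo 2 and 3 together was chosen after seeing the data.

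The 39 genes and all other lists were chosen with earlier results of these data known. Values by library are given for the 2 genes of each branch with the smallest p in WT E2+P4 and for the sensor genes. For other comparisons up to 6 called genes with the smallest p and up to 3 others with the largest change are named. From other lists up to 3 genes are named, and where 5 or fewer were called the rest were named after their values were seen, as were further called genes of the 39. Replicate numbers were not used to pair libraries in the main fit. Correlations of deviations from the group means were taken between libraries of different groups. Over 178 pairs with the same number the median was 0.001 (-0.504 to 0.56), against 0.002 over 449 pairs with different numbers. Of the same-number pairs 9.6% were over 0.1, and a small median cannot exclude that single pairs share a source. Within-group pairs differed by a chi-square per degree of freedom of 23.3 to 313.3, so none was counted as a repeat.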

Additional observations from a re-analysis of the deposited data

Results flagged for a closer look

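Creld2 in WT P4 4 stood apart within its group, at 92.9 CPM against 74.7, 75.5 and 76.1 in the other WT P4 libraries. This was 1 of 39 such gaps tested, where chance gives about 1 in 20.

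The remaining results concern responses that differed between a mutant and WT cells by the interaction term of edgeR's quasi-likelihood fit, on the log2 scale. For E2 in D542G these were Trib3 (2.50), Dnajc3 (0.97) and Creb3l2 (1.41). For E2 in Y541S they were Manf (-0.94), Sel1l (1.07), Hspa5 (-0.89) and Creb3l2 (1.34). The calls of Creb3l2 were lost in 8 of 18 alternatives in D542G and 12 of 20 in Y541S, and that of Hspa5 in 8 of 20. For E2+P4 in D542G they were Edem1 (-1.69), Dnajb11 (-0.69), Ern1 (-1.33), Derl1 (-0.74), Ssr1 (-0.77) and Ssr3 (-0.77). For E2+P4 in Y541S the 6 with the smallest p were Ern1 (-3.16), Edem1 (-2.33), Dnajb9 (-2.69), Spcs3 (-1.43), Ssr1 (-1.11) and Ssr3 (-1.11).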

How the results depend on the processing

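Counts are of the 39 genes called in either direction, and no call turned its direction under any alternative tried. Brackets give all tested genes called higher and lower in the same fit. A fit of only the groups compared held fewer libraries and genes. It called 11 in WT E2 against WT placebo (1450 and 1689 of 15083) and 4 in D542G P4 (1043 and 1132 of 15528). It called 0 in Y541S E2 (0 and 0 of 15731) and 13 in WT E2+P4 against WT E2 (653 and 239 of 15234). In Y541S placebo against WT placebo it called 5 (549 and 403 of 15366). In D542G E2+P4 against WT E2+P4 it called 0 (34 and 93 of 15395). The same kind of fit called 0 for the Y541S E2 response (175 and 219 of 16689). For the D542G E2+P4 response it called 2 (245 and 596 of 16568), and for the Y541S E2+P4 response 11 (304 and 629 of 16588). A fit with the replicate block treats equal numbers as a shared source, which was not established. It called 0 in WT P4 (57 and 22 of 18426) and 10 for the D542G E2+P4 response (277 and 665 of 18426). DESeq2 called 3 in WT P4 (429 and 317 of 18426) and 2 in D542G placebo against WT placebo (366 and 299 of 18426). It called 7 for the Y541S E2 response (1025 and 1143) and 13 for the D542G E2+P4 response (484 and 951). Without the later identifier series, with 19100 genes tested, 2 were called in WT P4 (148 and 80) and 4 in Y541S P4 (963 and 1199). That fit called 13 in Y541S placebo against WT placebo (979 and 807) and 2 for the Y541S E2 response (472 and 469). Without WT placebo 2 and WT P4 2, with 19058 genes tested, the count was 0 in WT P4 (82 and 60). For the D542G E2 response it was 5 (859 and 932) and for the D542G E2+P4 response 2 (101 and 323). Relative log expression scaling called 1 in Y541S E2 (265 and 563 of 18426). No filter on low counts called 2 there (243 and 383 of 29100) and 4 in D542G E2+P4 against WT E2+P4 (286 and 616). Without Y541S placebo 2 and 3, 0 were called in Y541S E2, 9 in Y541S E2+P4 and 9 for the Y541S E2 response. The cause of these moves was not tested.

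With single libraries left out, the count ran from 13 to 17 in WT E2, 0 to 1 in WT P4, 25 to 27 in WT E2+P4, 17 to 22 in D542G E2, 3 to 7 in D542G P4, 19 to 24 in D542G E2+P4, 0 to 5 in Y541S E2, 3 to 6 in Y541S P4 and 8 to 18 in Y541S E2+P4. It ran from 10 to 20 for the interaction in WT, 13 to 19 in Y541S placebo, 2 to 11 in D542G E2+P4 and 8 to 16 in Y541S E2+P4, each against the same treatment in WT. For the responses it ran from 1 to 6 (Y541S E2), 1 to 10 (D542G E2+P4) and 10 to 19 (Y541S E2+P4). Groups of 3 libraries and a common biological coefficient of variation of 0.458 limit what can be called, so a gene without a call is not shown to be unchanged.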

Other observations

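The other pathway genes outside the 39 were also counted under single hormones. In WT E2, with a background of 15.6% of all tested genes higher and 15.9% lower, 6 of 20 other folding enzyme genes were higher and 5 lower. Of 26 translocon, signal peptidase and oligosaccharyltransferase genes 8 were higher and 3 lower, and of 22 ER to Golgi transport genes 8 and 2. In D542G E2, with a background of 8.36% and 7.34%, the same lists had 8, 10 and 10 genes higher and 0 lower. In D542G P4, with a background of 9.49% and 8.88%, they had 2 higher and 5 lower, 2 and 7, and 0 and 3, and 6 of 17 other degradation genes were lower with 0 higher. Several of these counts lie near the background, and the differences between comparisons were not tested for the lists.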
